A study of Homo sapiens with 6 samples.

Results

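Histone genes fall into 2 kinds. The rows examined here were chosen by gene symbol: 73 genes of the histone clusters (symbols starting with HIST1H to HIST4H), 10 genes of histone variants that lie outside the clusters (H2AFJ, H2AFV, H2AFX, H2AFY, H2AFY2, H2AFZ, H3F3A, H3F3B, H1F0 and H1FX) and SLBP, the stem-loop binding protein. Together they made up 84 of the 27685 genes in the table. The cells were SZ95 sebocytes, a human sebaceous gland line immortalized with the SV40 large T antigen. Cells without serum received ambient fine particulate matter (PM2.5) at 100 μg/mL, resuspended in 20% ethanol, for 24 h, and control cells received 20% ethanol alone for the same time. Polyadenylated RNA from 3 samples per group was sequenced, and nothing in the labels says whether the 3 were separate cultures, so each p-value rests on variation among libraries that could be technical. All samples come from this 1 line, and the T antigen, which acts on cell cycle control, is present in both groups.

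The nucleosome holds a core of the histones H2A, H2B, H3 and H4, and linker histone H1 binds the DNA that enters and leaves it. Replication-dependent histones are encoded in clusters, are transcribed mainly in S phase to package new DNA, and most of their mRNAs end in a conserved stem-loop in place of a poly(A) tail. SLBP binds that stem-loop and is needed for the processing, export and translation of these mRNAs. The variant histones, such as H2A.Z and H3.3, are encoded by genes outside the clusters, are made largely independently of replication and have polyadenylated mRNAs, while H2AFX is known to make both forms. In poly(A)-selected libraries, cluster histone mRNAs are therefore counted mainly as far as they carry a tail, and how much of each mRNA carried one was not measured here.

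The stem-loop is shown first because it is the known end of replication-dependent histone mRNAs. Each line gives the DNA letters of 1 gene in GENCODE release 29, 5′ to 3′, with the 16 bases of stem and loop in capitals and 5 bases on each side.
HIST1H3H: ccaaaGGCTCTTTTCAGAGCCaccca
HIST1H2AC: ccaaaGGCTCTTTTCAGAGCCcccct
HIST1H2BG: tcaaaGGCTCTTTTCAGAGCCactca
HIST1H2BD: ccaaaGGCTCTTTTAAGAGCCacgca
HIST1H4H: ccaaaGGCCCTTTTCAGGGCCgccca
HIST2H4A: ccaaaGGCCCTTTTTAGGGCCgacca
HIST3H2A: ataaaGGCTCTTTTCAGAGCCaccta
H2AFX: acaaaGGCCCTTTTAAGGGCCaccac
The stem has 6 base pairs and the loop 4 bases. The consensus of the histone stem-loop, searched on the transcript strand, was the base-paired ends, the CTT and the AG that all forms below share. It occurred in 709 of all 58721 annotated genes (1.21%). Among these were 35 with symbols starting with HIST1H to HIST4H, a count not limited to the 73 cluster genes examined here. A full stem was found in 33 cluster genes and in 1 variant, H2AFX. It lay after the stop codon in 32 of the cluster genes, and the other is the pseudogene HIST2H2BC, for which no stop codon was used. Most cluster genes without a match could not be searched after a stop codon, since 37 of the 73 are not annotated as far as 30 bases past a stop codon. The form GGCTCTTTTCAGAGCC was shared by 17 H2A, H2B and H3 genes, and the forms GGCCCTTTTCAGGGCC and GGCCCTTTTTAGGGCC occurred in 5 and 3 H4 genes. In 24 of the 33 genes an annotated transcript ran 100 bases or more past the stem-loop, as in HIST1H3H (769 bases), HIST1H2AC (1128 bases) and HIST3H2A (390 bases), so for these genes the annotation holds a transcript that does not end at the stem-loop.

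Library totals ran from 56460553 to 71080000 counts, and 16049 genes passed the filter on low counts and were tested. Levels are CPM, the counts divided by library size and TMM factor on the usual scale, given as mean ± SD (n = 3), and are not divided by gene length. A gene was called where its adjusted p in edgeR's quasi-likelihood test, over all 16049 genes, was under 0.05, and every adjusted p printed is of this kind. PM2.5 raised CYP1A1, a xenobiotic-metabolizing enzyme, from 3.56 ± 0.676 to 560 ± 32.0 CPM (log2 fold change 7.29 ± 0.13 SE, adjusted p = 7.16e-08), so the libraries of the 2 groups carry this known response as labelled. The sebocyte markers KRT7 and MUC1 were present in all libraries, while MLANA, TYR and CD3E had no counts and COL1A2, COL3A1, PDGFRA and DCN had between 2 and 11 in all. Summed levels of marker lists did not overlap between the groups for sebocytes (8 genes, 2800 to 2913 CPM without and 3323 to 3734 with PM2.5), immune cells (4 genes, 64.4 to 70.4 and 105 to 116, nearly all CD68) and endothelium (3 genes, 183 to 207 and 80.3 to 91.3, nearly all CDH5). Within the sebocyte list FASN, SCD and PPARG were called higher, with mean levels of 404 and 807 CPM for FASN and 482 and 1191 CPM for SCD, while KRT7 (73.1% of control), MUC1 (90.7%) and KRT14 (35.3%) were called lower. The fibroblast list (6 genes, nearly all COL1A1) did not overlap either, at 44.1 to 49.2 CPM without and 52.3 to 56.6 CPM with PM2.5. In it COL1A1 was called higher (log2 fold change 0.27, adjusted p = 0.00778). LUM, with 919 counts in all, was called lower (-1.25, adjusted p = 0.000268). Of the endothelial list, CDH5 and VWF (1413 counts in all) were called lower and PECAM1 was not called. The melanocyte list (4 genes, nearly all PMEL) overlapped between the groups. The part of these markers in the histone results was not tested.

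Many cluster histones were lower in PM2.5-treated SZ95 sebocytes, and none was higher. Of the 34 cluster genes tested, 20 (58.8%) were lower and none was higher, against 22.0% of all tested genes lower, 21.7% higher and 43.6% called in either direction. No cluster gene was higher at an unadjusted p under 0.05 in edgeR, and DESeq2 and limma-voom also called 0 higher. The median log2 fold change of the 34 genes was -0.70 (range -2.59 to 0.15), 31 of the 34 values were negative, and the median of all tested genes was 0.0042. In 22 of the 34 (64.7%) all PM2.5 libraries were below all control libraries, a pattern seen in 28.1% of all tested genes. A smaller share of cells making these mRNAs, less histone mRNA per cell and a smaller share of it with a tail cannot be told apart in such bulk poly(A)-selected libraries.

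Summed over the 73 cluster genes, the level was 133, 127 and 142 CPM in the control libraries and 90.3, 92.9 and 96.4 CPM in the PM2.5 libraries. The groups did not overlap, and the means were 134 ± 7.72 and 93.2 ± 3.07 CPM, the latter 69.6% of control. The 10 variants summed to 2337 ± 62.9 CPM in the control and 2397 ± 60.8 CPM in the PM2.5 group, and here the groups overlapped. Per 100 counts of the variants, the control libraries held 5.77, 5.51 and 5.90 counts of cluster genes and the PM2.5 libraries 3.86, 3.78 and 4.03. This ratio was lower in each PM2.5 library than in any control library.

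**Figure D1:**
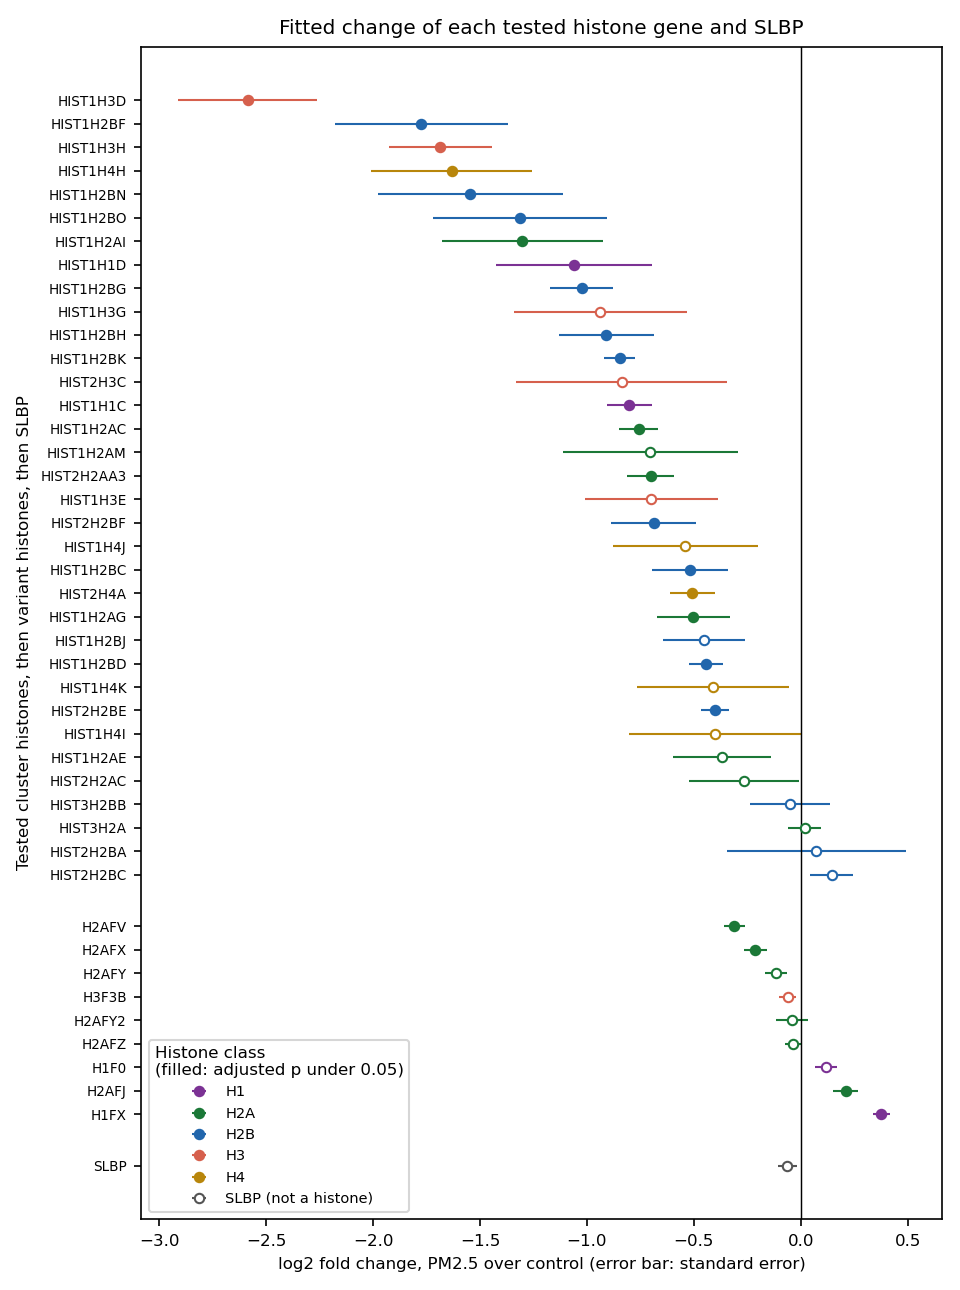
Fitted log2 fold change of PM2.5 over control for each of the 34 tested cluster histones, the 9 tested variants and SLBP, in order of the change, with the standard error as bars and the histone class as colour. Filled points are genes called by edgeR (adjusted p under 0.05): 20 cluster genes, all left of 0, and 4 variants, 2 on each side.

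Not every cluster gene could be tested. Of the 39 that missed the filter, 8 had no counts in any library, and the other 31 reached at most 22 counts in a library, with a lower mean CPM in PM2.5 libraries for 26 and a higher one for 5. Among the 34 tested genes, 10 reached the minimum count in all control libraries but not in all PM2.5 libraries. Of these 10, 6 (60%) were called lower, and the median was -1.31. HIST1H2BF and HIST1H2BN reached the minimum in no PM2.5 library, so they passed the filter only through the group in which they were higher. HIST1H3D, HIST1H4H, HIST1H2AI and HIST1H2BO, the others called lower, reached it in 2 PM2.5 libraries each, so those libraries alone would not have kept them. The shares by class and by genomic cluster below include all 10. The 22 genes that reached the minimum in every library do not have this limit. Of these 14 (63.6%) were lower, against 22.0% of all tested genes, and their median was -0.51. The 18 genes with a mean count of at least 50 had the same median of -0.51, and 13 of them were lower.

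Histone H3 genes held the largest fall among the tested cluster genes. HIST1H3D had 96, 68 and 102 counts in the control libraries and 20, 8 and 16 in the PM2.5 libraries. Every control library was above every PM2.5 library, and the level fell from 1.39 ± 0.264 to 0.238 ± 0.115 CPM (log2 fold change -2.59 ± 0.33 SE, adjusted p = 0.000645). HIST1H3D also missed the minimum count of the filter in a PM2.5 library. It overlaps the H2A gene HIST1H2AD in the annotation, so counts in this stretch may belong to either. HIST1H3H, whose stem-loop is shown above, had 98, 82 and 132 counts in control and 22, 39 and 36 in PM2.5 libraries. The groups were again apart, at 1.62 ± 0.315 and 0.505 ± 0.134 CPM (log2 fold change -1.69 ± 0.24 SE, adjusted p = 0.00108). The 14 H3 genes of the clusters summed to 35.2% of their control level, the lowest share of the 5 classes. Only 5 of the 14 were tested, and the other 3 of these, among them HIST1H3G (-0.94 ± 0.40 SE) and HIST1H3E (-0.70 ± 0.31 SE), were not called.

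The H2B genes were the most numerous among the called genes. Of 20 H2B genes 14 were tested and 10 (71.4%) were lower, against 22.0% of all tested genes. The median log2 fold change was -0.60 and the summed level of the class was 67.2% of control. HIST1H2BK, the H2B gene with the most counts, had 1743, 1614 and 2091 counts in the control libraries and 946, 1161 and 926 in the PM2.5 libraries. The lowest control library was well above the highest PM2.5 library, and the level fell from 28.4 ± 2.49 to 15.8 ± 0.281 CPM (log2 fold change -0.85 ± 0.074 SE, adjusted p = 0.000157). HIST1H2BG fell by 1.02 ± 0.15 on the log2 scale (adjusted p = 0.00109), from 114, 108 and 135 counts to 49, 70 and 57. Its groups did not overlap either. The H4 gene HIST1H4I overlaps HIST1H2BK in the annotation, so reads in the shared stretch may belong to either.

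Further H2B genes were lower by larger or smaller amounts. HIST1H2BF had 17, 22 and 30 counts in control and 5, 11 and 4 in PM2.5 libraries (log2 fold change -1.77 ± 0.40 SE, adjusted p = 0.0091), so its change rests on few reads, and the filter kept it only through the control libraries. HIST1H2BN, kept by the filter in the same way, had a log2 fold change of -1.55 (adjusted p = 0.0214). HIST1H2BO fell by 1.31 (adjusted p = 0.0313) and HIST1H2BH by 0.91 (adjusted p = 0.0119). The well counted HIST1H2BD and HIST2H2BE changed less, by -0.44 ± 0.078 SE (14.3 ± 0.960 to 10.5 ± 0.611 CPM, adjusted p = 0.00286) and -0.40 ± 0.064 SE (adjusted p = 0.00179). HIST1H2BC and HIST2H2BF completed the 10, at -0.52 (adjusted p = 0.0452) and -0.69 (adjusted p = 0.0233). The pseudogenes HIST2H2BA and HIST2H2BC were not called, at 0.07 ± 0.42 SE and 0.15 ± 0.10 SE, and with HIST3H2A they were the 3 tested cluster genes with a positive value.

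**Figure D2:**
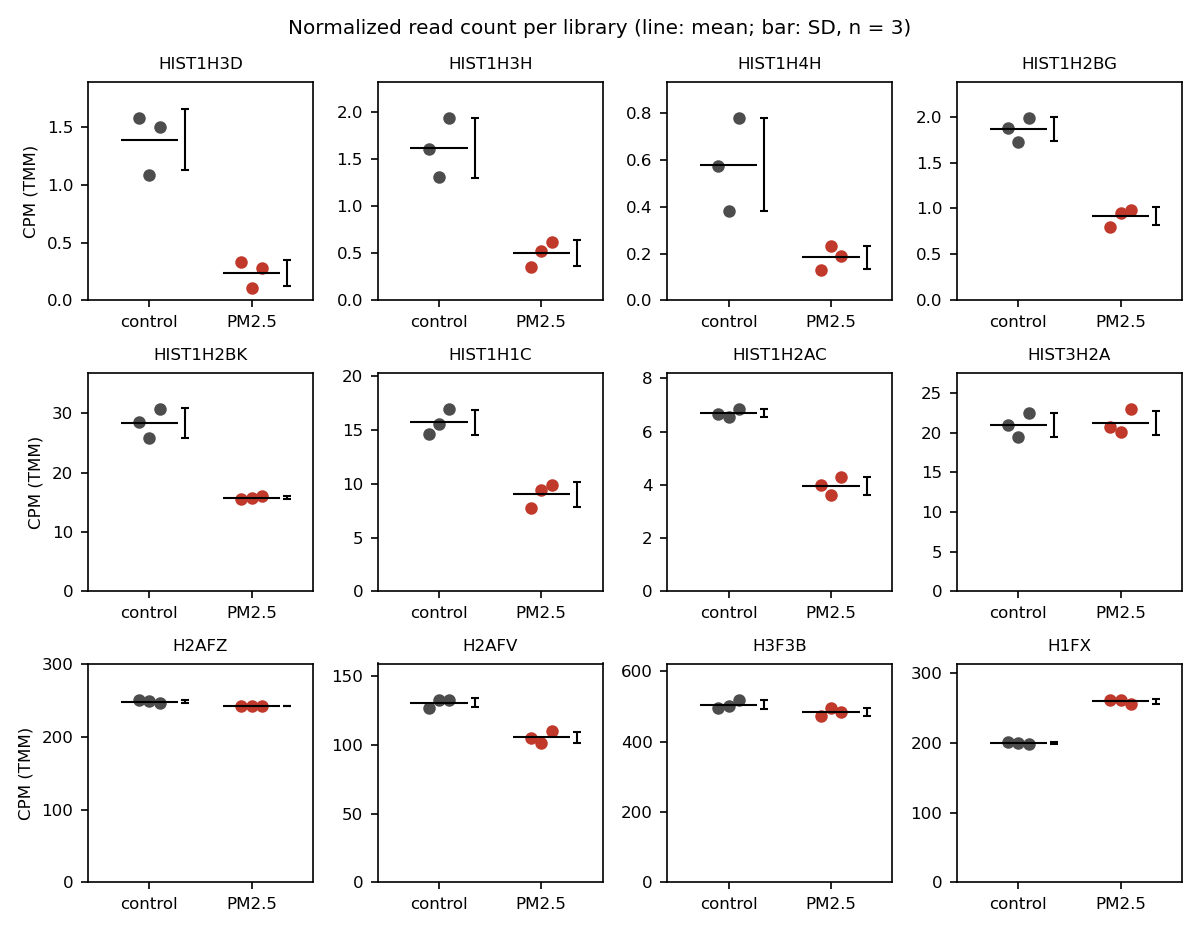
Normalized level (CPM after TMM scaling, linear axis from 0) of 8 cluster histones and 4 variants in each of the 3 control and 3 PM2.5 libraries, with the group mean as a line and the SD as a bar. HIST1H3D drops from 1.39 to 0.238 CPM and HIST1H2BK from 28.4 to 15.8 CPM with no overlap, HIST3H2A overlaps between the groups, and H1FX rises from 200 to 259 CPM.

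The linker histones HIST1H1C and HIST1H1D, which encode H1.2 and H1.3, were the only tested H1 genes of the clusters, and both were lower. HIST1H1C had 892, 973 and 1153 counts in control and 471, 696 and 570 in PM2.5 libraries. No PM2.5 library reached the level of a control library, and the mean fell from 15.7 ± 1.16 to 9.02 ± 1.15 CPM (log2 fold change -0.80 ± 0.10 SE, adjusted p = 0.000722). HIST1H1D fell by 1.06 ± 0.36 on the log2 scale (adjusted p = 0.0449). Summed over all 6 H1 genes, the level was 57.0% of control.

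The H2A genes of the clusters were split between lower and not called, with 50% of those tested lower against 22.0% of all tested genes. Of 18 H2A genes 8 were tested, and the 4 called lower were HIST1H2AI (-1.30 ± 0.37 SE, adjusted p = 0.0237), HIST1H2AC (-0.76 ± 0.09 SE, adjusted p = 0.000493), HIST2H2AA3 (-0.70 ± 0.11 SE, adjusted p = 0.00168) and HIST1H2AG (-0.50 ± 0.17 SE, adjusted p = 0.0436). HIST1H2AC went from 406, 411 and 466 counts in control to 244, 267 and 247 in PM2.5 libraries, without overlap in CPM. HIST3H2A, which shares its stem-loop letters with HIST1H3H, had 1278, 1221 and 1526 counts in control and 1267, 1481 and 1325 in PM2.5 libraries. Here the groups overlapped (log2 fold change 0.02 ± 0.077 SE, adjusted p = 0.856). The summed level of the class, with HIST3H2A included, was 85.1% of control, and the median log2 fold change of its tested genes was -0.60.

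Among the 15 H4 genes, 5 were tested and 2 (40%) were lower, against 22.0% of all tested genes. HIST2H4A had 278, 273 and 298 counts in control and 167, 242 and 192 in PM2.5 libraries, and HIST1H4H had 35, 24 and 53 and then 8, 17 and 11. The groups were apart in both genes, with falls of 0.51 ± 0.10 (adjusted p = 0.00581) and 1.63 ± 0.38 (adjusted p = 0.0095) on the log2 scale. HIST1H4J, HIST1H4K and HIST1H4I were not called, at -0.54, -0.41 and -0.40. HIST1H4J and HIST1H4K have identical coding stretches, so their separate values are uncertain. The summed level of the class was 66.3% of control.

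The same values can be given for each genomic cluster. HIST1, the large cluster on chromosome 6, held 56 of the 73 genes, and HIST2 and HIST3 on chromosome 1 held 13 and 3. In HIST1, 16 of 24 tested genes (66.7%) were lower, against 22.0% of all tested genes. The median log2 fold change was -0.82 and the summed level was 58.7% of control. In HIST2, 4 of 8 tested genes (50%) were lower, the median was -0.45 and the sum 76.3% of control. HIST3 had 2 tested genes, HIST3H2A and HIST3H2BB, neither was called (0.02 ± 0.077 SE and -0.05 ± 0.19 SE), and the sum was 101% of control. The difference between the clusters itself was not tested. HIST4 consists of HIST4H4 on chromosome 12, which had between 4 and 15 counts and was not tested.

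**Figure D3:**
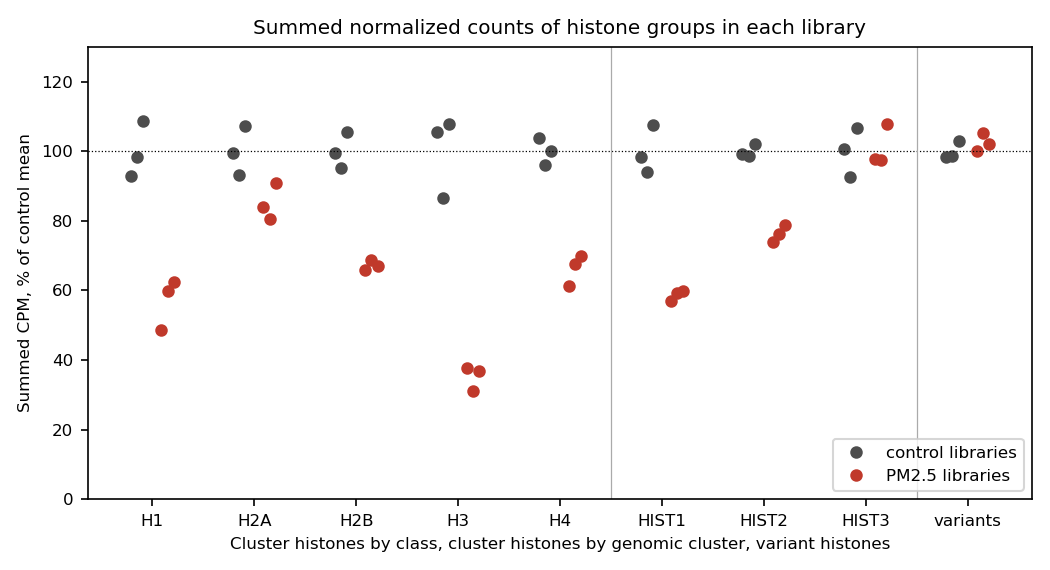
Summed CPM of the cluster histones by class and by genomic cluster and of the variants, in each library, as a percentage of the mean of the 3 control libraries (linear axis from 0, dotted line at 100). The PM2.5 libraries lie below all control libraries in every class and in HIST1 and HIST2, with H3 lowest at 35.2% on average, and overlap with them in HIST3 and the variants. The variants are shown without the pseudogene row H3F3AP4.

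H2A and H2B genes of the clusters often lie head to head and share a short promoter stretch, and neighbours can be compared. In the pair HIST1H2AC and HIST1H2BC, on either side of 246 bases in RefSeq, both were lower (-0.76 and -0.52). In the pairs HIST1H2AE with HIST1H2BG (-0.37 and -1.02), HIST1H2AM with HIST1H2BO (-0.70 and -1.31) and HIST2H2AC with HIST2H2BE (-0.27 and -0.40) the H2B gene was called lower and the H2A gene was not called. HIST1H2AG was called (-0.50) and its partner HIST1H2BJ was not (-0.45). Both values were negative in each of these 5 pairs. In HIST3H2A and HIST3H2BB, 230 bases apart, neither gene was called. HIST1H2BK had 8481 counts over the 6 libraries and its partner HIST1H2AH 16, so a pair could also differ widely in its counts. The difference within a pair was not tested.

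Promoter sequences are shown for 3 genes that were lower and for HIST3H2A, which was not called, since members that moved together can then be read side by side. Each is the 250 bases before the start of the gene in RefSeq (GRCh38.p14), 5′ to 3′ on the strand of the gene, with 4 kinds of motif in capitals, searched on both strands. These were CCAAT, the site of NF-Y. The next was TATAAA, the core of the TATA box. Then came the octamer ATTTGCAT, the known element of H2B promoters bound by OCT1. The last were TTTCGCGC and its form TTTGGCGC, sites of E2F, a factor of S phase entry. Neighbouring or overlapping matches run together. The first is HIST1H2BF at chr6:26199266-26199515 on the plus strand, the second HIST1H2BK at chr6:27146859-27147108 on the minus strand, then HIST1H3H at chr6:27809801-27810050 on the plus strand and HIST3H2A at chr1:228457874-228458123 on the minus strand.
HIST1H2BF: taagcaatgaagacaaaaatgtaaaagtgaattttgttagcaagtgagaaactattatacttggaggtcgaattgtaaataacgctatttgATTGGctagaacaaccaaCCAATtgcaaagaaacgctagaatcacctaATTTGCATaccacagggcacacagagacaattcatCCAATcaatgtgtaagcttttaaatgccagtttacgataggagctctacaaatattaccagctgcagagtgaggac
HIST1H2BK: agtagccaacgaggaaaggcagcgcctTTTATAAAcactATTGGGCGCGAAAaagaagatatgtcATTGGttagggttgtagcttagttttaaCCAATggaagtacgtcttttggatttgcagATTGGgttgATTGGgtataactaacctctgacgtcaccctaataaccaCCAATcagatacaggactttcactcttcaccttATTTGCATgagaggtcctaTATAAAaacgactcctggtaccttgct
HIST1H3H: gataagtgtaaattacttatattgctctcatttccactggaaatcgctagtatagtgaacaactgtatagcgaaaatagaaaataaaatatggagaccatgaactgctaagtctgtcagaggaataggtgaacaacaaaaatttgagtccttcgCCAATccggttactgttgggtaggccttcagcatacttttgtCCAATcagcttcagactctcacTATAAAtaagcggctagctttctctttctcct
HIST3H2A: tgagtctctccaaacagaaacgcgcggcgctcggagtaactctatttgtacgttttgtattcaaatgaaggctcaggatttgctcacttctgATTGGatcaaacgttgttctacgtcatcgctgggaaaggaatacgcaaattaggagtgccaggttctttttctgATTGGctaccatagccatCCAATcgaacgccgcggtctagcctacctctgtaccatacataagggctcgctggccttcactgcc
A promoter was matched for 65 cluster genes and 9 variants. CCAAT occurred in 84.6% of the cluster promoters, in 66.7% of the variant promoters and in 33.0% of all 27305 promoters of the same length. TATAAA occurred in 66.2%, 44.4% and 11.1%, and the octamer in 40.0%, 11.1% and 1.66%. By class, the octamer was found in 77.8% of H2B and 68.8% of H2A promoters and in 0 of the 13 H4 promoters, of which 23.1% held CCAAT. The E2F forms occurred in 16.9% of cluster promoters, in 0 of the 9 variant promoters and in 0.996% of all promoters. Between the 20 cluster genes called lower and the 12 not called that had a promoter, the shares were 90.0% and 83.3% for CCAAT, 60.0% and 66.7% for TATAAA, 55.0% and 33.3% for the octamer and 20.0% and 16.7% for the E2F forms. These sets were not matched by histone class. The 20 lower genes held 10 H2B and 4 H2A genes, and all 14 tested cluster genes not called held 4 of each. Head-to-head neighbours such as HIST1H2AC and HIST1H2BC share most of their window, so the same match can be counted for both. HIST1H2AD and HIST1H3D have the same window. The promoters are thus not all separate, and HIST1H2AG, called lower, shares most of its window with HIST1H2BJ, which was not called. These shares describe letters in a window and no binding was measured.

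A list of 7 cluster genes known to make polyadenylated mRNA as well (HIST1H1C, HIST1H2AC, HIST1H2BC, HIST1H2BD, HIST1H2BK, HIST2H2BE and HIST4H4) was set beside the other cluster genes. All of the list but HIST4H4 were tested, and all 6 were lower, against 22.0% of all tested genes. The median log2 fold change of the 6 was -0.64. The summed level of the 7 was 81.1 ± 4.24 CPM in control and 51.4 ± 1.61 CPM, or 63.3% of that, in PM2.5 libraries. Of the other 66 cluster genes 28 were tested, 14 (50%) were lower and the median was -0.70, with a summed level at 79.3% of control. The 6 genes all had a mean count of at least 50, while 16 of the 28 others did not. Of all tested cluster genes, 72.2% with such a mean count and 43.8% of those 16 were lower. These shares of called genes were thus set beside each other at unlike read counts. The share of cluster counts that lay outside the list was 38.3% to 40.4% in control and 44.1% to 45.4% in PM2.5 libraries. HIST3H2A, which was not called, holds much of these counts. Without it, a choice made after seeing the data, the summed level outside the list was 64.7% of control, and the share outside the list was 27.1% to 29.2% in control and 28.4% to 28.7% in PM2.5 libraries. By annotation, 12 of 19 tested genes with a transcript of 100 bases or more past the stem-loop were lower (median -0.70), as were 3 of 5 tested stem-loop genes without one (median -0.54). Whether PM2.5 changed the share of histone mRNA that carries a tail was not tested.

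Of the 9 variant histones tested, 2 (22.2%) were higher, 2 (22.2%) were lower and 5 were not called, shares close to the 21.7% and 22.0% of all tested genes. Their median log2 fold change was -0.04. H1FX, which encodes the linker histone H1.10, had 201, 200 and 198 CPM in the control and 261, 261 and 256 CPM in the PM2.5 libraries. Each PM2.5 library was above each control library, and the rise was 0.38 ± 0.038 SE on the log2 scale (adjusted p = 0.000268). H2AFJ, the H2A.J variant known from senescent cells, rose from 33.4 ± 0.582 to 38.7 ± 2.49 CPM (0.21 ± 0.060 SE, adjusted p = 0.023). H1F0, which encodes H1.0, a linker histone of differentiated and non-dividing cells, was not called, at 885 ± 36.4 and 961 ± 42.1 CPM (0.12 ± 0.051 SE, adjusted p = 0.0979). Its groups overlapped by 1 library on each side.

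The H2A variants other than H2AFJ were lower or were not called. H2AFV, the second gene for H2A.Z, had 127, 132 and 133 CPM without PM2.5 and 105, 102 and 110 CPM with it, with no overlap (log2 fold change -0.31 ± 0.047 SE, adjusted p = 0.00146). H2AFZ, the first gene for H2A.Z, was not called (249 ± 2.46 and 243 ± 0.589 CPM, -0.04 ± 0.038 SE, adjusted p = 0.469), although its PM2.5 libraries were all slightly below the control libraries. H2AFX, whose product is phosphorylated beside DNA breaks and whose annotated transcript holds the stem-loop shown above, fell from 56.9 ± 2.90 to 49.1 ± 0.765 CPM (-0.21 ± 0.053 SE, adjusted p = 0.0132). The macroH2A genes H2AFY and H2AFY2 were not called, at -0.12 ± 0.050 SE (adjusted p = 0.0955) and -0.04 ± 0.073 SE (adjusted p = 0.679).

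Histone H3.3 is encoded by H3F3A and H3F3B, and their counts need care. H3F3A was listed with 7, 11 and 18 counts in the control and 3, 4 and 5 in the PM2.5 libraries and was not tested. Its processed pseudogene H3F3AP4, whose coding stretch differs from that of H3F3A at 0 of 411 bases, was listed with 22856, 23557 and 26511 counts in control and 16033, 20122 and 16315 in PM2.5 libraries. Reads from the coding stretch cannot be told apart between these genes, so the counts of either row are uncertain. Under the pseudogene the level fell from 380 ± 8.03 to 273 ± 10.1 CPM (log2 fold change -0.48 ± 0.045 SE, adjusted p = 0.000203), and with both rows summed the value was again -0.48 ± 0.045 SE. With that sum counted in place of H3F3A, an alternative chosen after seeing the data, 3 variants were lower instead of 2. H3F3B, which differs from H3F3A at 88 of the 411 bases, was not called (506 ± 11.7 and 485 ± 11.2 CPM, -0.06 ± 0.042 SE, adjusted p = 0.266).

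**Figure D4:**
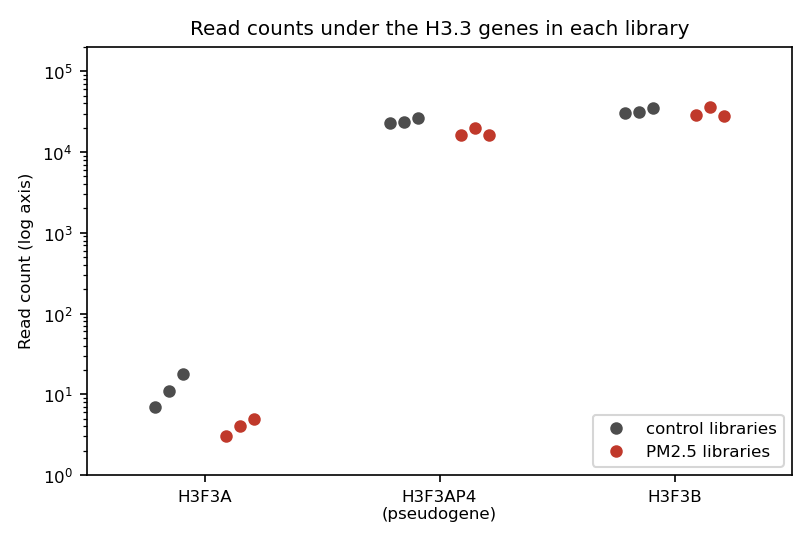
Read counts (log axis) listed under H3F3A, its processed pseudogene H3F3AP4 and H3F3B in each of the 3 control and 3 PM2.5 libraries. H3F3A has 3 to 18 counts, while the pseudogene has 22856 to 26511 in control and 16033 to 20122 in PM2.5 libraries, with no overlap.

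Other genes also share identical coding stretches. HIST2H2AA4, HIST2H4B and HIST2H3A, identical in the coding stretch to HIST2H2AA3, HIST2H4A and HIST2H3C, had at most 2 counts in a library, so the values of HIST2H2AA3, HIST2H4A and HIST2H3C may stand for both copies. HIST1H4J and HIST1H4K are identical as well and were listed with 108 and 142 counts over the 6 libraries, so how these counts were split between the pair is uncertain. Across the classes, the median identity of a coding stretch to its closest member was 90.7% for H2A, 92.9% for H2B, 88.1% for H3 and 87.7% for H4, and how reads that fit several genes were counted is not given in the sources used here.

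SLBP had 87.4, 84.9 and 83.2 CPM without PM2.5 and 83.5, 80.7 and 80.6 CPM with it. These groups overlapped (log2 fold change -0.06 ± 0.044 SE, adjusted p = 0.289). Of 22 genes on the histone mRNA processing list, all tested, 2 (9.09%) were higher, 5 (22.7%) were lower and 15 were not called. Of all tested genes, 21.7% were higher and 22.0% lower, and the median of the list was -0.10. The list also holds NPAT, HINFP, POU2F1, CDK2, CCNE1 and CCNE2, which act in transcription or the cell cycle and were not called. CCNE1 and CCNE2 are also on the S phase list below. LSM11, a subunit of the U7 particle that cleaves histone pre-mRNA, rose by 0.43 ± 0.055 SE (adjusted p = 0.000691). SNRPD3 and SNRPB, Sm proteins shared by the U7 particle and the spliceosome, fell by 0.30 (adjusted p = 0.000839) and by 0.21 (adjusted p = 0.00831).

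Histone chaperones, which carry histones to and from DNA, and S phase genes were set beside the histones. Of 25 genes on the chaperone list, 1 was higher and 9 were lower, with a median of -0.10. The list includes CENPA, which is the centromeric H3 itself and no chaperone, and CENPA is among the 9 (-0.28, adjusted p = 0.0118). NASP, which holds the reserve of soluble H3 and H4, fell by 0.30 (adjusted p = 0.000901), and ASF1A, which hands H3 and H4 to the assembly factors, fell by 0.48 (adjusted p = 0.00184). CHAF1B, a subunit of the replication-coupled assembly factor CAF-1, rose by 0.29 (adjusted p = 0.0041). Of 26 S phase genes, which include SLBP, 9 were lower and 17 were not called, with a median of -0.08. Among these were UNG, a uracil glycosylase (-0.39, adjusted p = 0.000339), the helicase subunit MCM3 (-0.33, adjusted p = 0.00113) and RRM2, a subunit of ribonucleotide reductase (-0.24, adjusted p = 0.00272). Called lower were 22.0% of all tested genes, 22.7% of the processing list, 36.0% of the chaperone list and 34.6% of the S phase list. Of the tested cluster histones, 58.8% were lower. All PM2.5 libraries lay below all control libraries in 31.8% of the processing, 48.0% of the chaperone and 42.3% of the S phase list. That share was 64.7% for the tested cluster histones and 28.1% for all tested genes. The S phase genes summed to 90.9% of control, 4559 to 4723 CPM in control and 4179 to 4285 CPM in PM2.5 libraries, without overlap. The sum was 94.5% of control for the processing and 94.2% for the chaperone list.

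Some calls changed with the libraries or the settings used. Without PM2.5 replicate 2, 13 cluster genes were lower instead of 20, and over all tested genes 2616 were lower instead of 3523. The number of higher variants was 1 instead of 2 without control replicate 1, control replicate 2 or PM2.5 replicate 2. H2AFJ was then not called (adjusted p = 0.0696, 0.0682 and 0.0534, in a range from 0.00615 to 0.0696 over all its alternatives). The calls of HIST1H2BC and HIST1H2AG were lost in 13 of 16 alternatives each, HIST1H1D in 7 of 15, HIST1H2BO and HIST2H2BF in 5 of 15, and HIST1H2BN and HIST1H2AI in 4 of 15.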

How the data were processed

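Read counts per gene, 1 column for each of 3 control and 3 PM2.5 libraries, were taken as deposited by the authors, with no normalization. RNA was extracted with Trizol and libraries were made with the TruSeq Stranded mRNA kit (poly(A) selection). The submitters' processing notes list the genome build hg19 and the tools HISAT2 2.0.5, Trimmomatic 0.32, DESeq2 and StringTie 1.3.3b, with no role for each. For the counting tool, its use of strand and reads that fit several genes the entry is "not given in the sources used here". These choices bear on histones, whose coding stretches are alike. One PM2.5 column name has 1 extra hyphen and was read as replicate 1.

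Counts were analysed with edgeR 4.0.16 under R 4.3.3. DESeq2 1.42.0 and limma 3.58.1 served alternatives. filterByExpr (minimum count 10, minimum total 15) kept 16049 genes and dropped 11636. TMM factors were used, and glmQLFit and glmQLFTest, with no factor other than treatment, gave two-sided p-values, adjusted by Benjamini-Hochberg over all 16049 genes. The SE of each log2 fold change is its size divided by the square root of F. CPM are TMM-scaled, without a prior count. The script was tested on simulated data with a single dispersion and with changes placed only in genes above a set level. Several members, such as HIST1H2BF and HIST1H4H, lie below that level, so the simulation does not cover calls at their counts. An exact permutation test of 3 against 3 cannot go below p = 0.1 and was not used. Intervals beyond the SE are not given, and all errors cover these libraries only.

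Members, lists and motifs were chosen with earlier results of these data known. Genes named by rule were the 10 largest falls and rises among called cluster genes without overlap, all variants and SLBP, the 2 genes of each class with the most counts, the 7 genes listed for polyadenylated mRNA, and up to 3 genes with the smallest adjusted p of each other list. HIST2H2AA3, HIST1H2AG, HIST2H2BF, H3F3AP4, the not-called cluster genes and the partners in H2A and H2B pairs lie outside it and were named after their values were seen. Symbols and Gene IDs are those of the table, and all 84 members matched RefSeq IDs. Promoters are from RefSeq (GRCh38.p14) and transcripts from GENCODE release 29, another build than the authors' hg19, so no coordinates were carried between them. Motifs were searched in 250 bases, on both strands. The alternatives were DESeq2, limma-voom, edgeR's legacy fit, 3 scalings, 3 filters, a replicate block and leaving out each library.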

Additional observations from a re-analysis of the deposited data

How the results depend on the processing

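The number of cluster histones called higher was 0 under every alternative run. The number called lower was 20, between 17 and 24 under the other tests, scalings and filters except a mean count of at least 50, where 12 of the 18 genes left were lower, and between 13 and 17 with 1 library left out. It was 14 without the 7 genes listed for polyadenylated mRNA, an alternative added after seeing the data. With 1 library left out, between 2613 and 3448 of all tested genes were called lower, against 3523 with all libraries. The cluster median of -0.70 was -0.62 with library size only and -0.50 with a mean count of at least 50, and ran from -0.75 to -0.66 with 1 library left out.

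With library size only, the median of all tested genes moved to 0.0856, and 65.2% of the called genes were higher, against 49.7% with TMM. Under it the variant median turned from -0.04 to 0.041 (-0.0039 with upper-quartile scaling). The number of lower variants was then 1 instead of 2, since H2AFX was not called (adjusted p = 0.065, from 0.00348 to 0.065 over its alternatives). Of the chaperone list, 6 genes were then called instead of 10. The number of higher variants ran from 1 to 3 with 1 library left out. Values near 0 changed sign: H2AFY2 to 0.041 with library size only, and between -0.092 and 0.013 with 1 library left out, H2AFZ to 0.00015 with upper-quartile scaling and 0.045 with library size only, H3F3B to 0.020 and SLBP to 0.019 with library size only, and HIST3H2A between -0.031 and 0.075 with 1 library left out. None of these genes was called in any setting. H1F0 was called higher with upper-quartile scaling (adjusted p = 0.0368), library size only (0.0128), a mean count of at least 50 (0.0378) and without control replicate 3 (0.0418), in a range from 0.0128 to 0.26 over its alternatives.

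Whether same-numbered samples were handled as pairs is not given in the labels. The deviations of same-numbered libraries from their group means correlated at -0.0301, 0.0897 and 0.110, so little variation was shared. With a replicate block, 18 cluster histones were lower and 7231 genes were called in all, against 20 and 6999. Cluster genes with few reads limit these results: 9 of the 34 tested had a median count under 20, and 39 could not be tested.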
